A study of Canis lupus familiaris with 6 samples.

Results

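The 10 genes described here work at the apical pole of epithelial cells and were followed in MDCKII cells, a line of canine kidney epithelium, grown flat or as cysts. They are the PDZ-domain scaffolds PDZK1 and NHERF1, the membrane enzymes GGT1, ANPEP and DPP4, the actin-binding protein gene VIL1, the ERM genes EZR, RDX and MSN, and the sialomucin gene PODXL. Members were the probe sets, groups of short oligonucleotides read together on an Affymetrix array, whose single annotated symbol was 1 of these names. NHERF1 stands under its older symbol SLC9A3R1. All 10 genes were found, on 23 of 42924 probe sets, out of 15115 named genes, and 9 of the 10 had at least 2 probe sets.

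The flat group (2D, 3 arrays) was MDCKII cultured to confluence on plastic as a polarized monolayer, and the cyst group (3D, 3 arrays) was MDCKII plated on a thin coat of Matrigel, a basement membrane extract. The coat was 100 µl in a 60 mm dish, under medium holding 2% Matrigel. Total RNA was taken 36 h after plating in both groups, and no gene was altered or drug given. The labels call the replicates biological but do not say how the cultures were kept apart. Bulk RNA was measured, so that fewer cells with a transcript and less of it in each cell cannot be told apart.

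Values are log2 expression. The 4 arrays of replicates 2 and 3 share a scale, with medians of 7.06 to 7.08, while the replicate 1 arrays have medians of 5.42 (2D) and 5.26 (3D) and correlate less with each other (r = 0.888 across probe sets) than the other 4 do among themselves (at least 0.982). The test therefore drew on replicates 2 and 3 alone (n = 2 arrays in each group). The replicate 1 pair gives a difference of its own with no test. In that pair 34.0% of all probe sets differed by at least 2-fold, against 1.98% on replicates 2 and 3, so a single replicate 1 difference carries little weight. Of the kidney epithelial markers, 8 of 9 were measured and none passed the test; EPCAM lay at 13.52 to 13.78 and KRT18 at 13.71 to 14.01 on the 4 arrays. None of the 7 fibroblast, 5 endothelial and 4 leukocyte markers measured passed either. Not all epithelial markers were as bright. CDH1 had means of 8.65 (2D) and 8.815 (3D), near those of endothelial CDH5 (8.385 and 8.405) and leukocyte LAPTM5 (8.54 and 8.69). The levels alone therefore do not set the cell types apart. On replicates 2 and 3 the GAPDH control probe sets read higher at the 3' than at the 5' end. They did so by 0.31 and 0.40 in 3D, against 0.20 and 0.16 in 2D, whereas for 2 actin pairs the 3D values were not the larger ones. In replicate 1 the GAPDH difference was 1.67 in 2D and 1.47 in 3D. The actin differences there were 2.22 and 2.17 in 2D, against 2.85 and 2.90 in 3D. The part of this in the results was not tested.

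The brush border is the dense array of microvilli on the apical face of kidney tubule and gut cells. Villin and other bundling proteins hold the actin core of each microvillus. Ezrin, radixin and moesin, when opened by lipid binding and phosphorylation, tie membrane proteins to that core. NHERF1 binds ezrin with its tail and membrane proteins with its PDZ domains, among them podocalyxin, while PDZK1 gathers transporters in the same layer. In MDCK cysts podocalyxin is widely used to mark the membrane that comes to face the lumen.

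In 3D cells PDZK1 was 13.7- to 14.2-fold higher and GGT1 2.90- to 4.07-fold higher over their probe sets, RDX was lower by up to 1.75-fold, and the other 7 genes did not pass the test. Counted on the brightest probe set of each gene, 2 of 10 genes were higher and 1 was lower at a limma adjusted p under 0.05. Over all 15115 named genes 7.29% passed, 4.20% higher and 3.09% lower. Counted by probe set, 6 of 23 passed against 6.61% of all probe sets, 4 of them higher (3.65% of all) and 2 lower (2.96% of all). The median difference of the 10 genes was 0.162 on the log2 scale, and -0.01 for all named genes. Over the 23 probe sets it was 0.055. In the replicate 1 pair the median of the 10 genes lay on the other side of 0, at -0.515, and that of all named genes at -0.11. The genes were grouped with results of these data known, so these shares describe the group and do not test it.

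**Figure D1:**
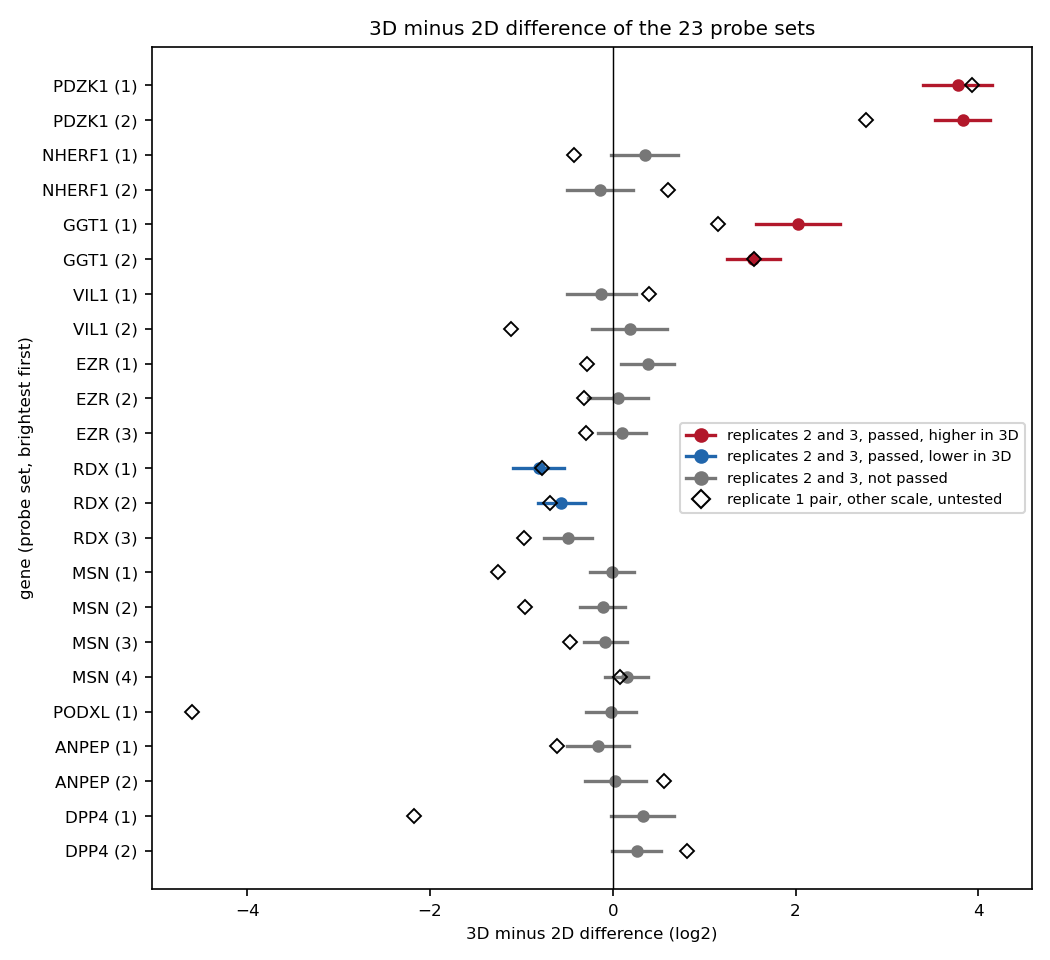
The horizontal axis gives the 3D minus 2D difference (log2) and the vertical axis the 23 probe sets, numbered within each gene from the brightest. Filled points with bars are the differences on replicates 2 and 3 with 95% intervals (n = 2 arrays per group), and open diamonds are the replicate 1 pair; both PDZK1 and both GGT1 probe sets lie right of 0 and all 3 RDX probe sets lie left of it, diamonds included.

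PDZK1, also called NHERF3, carries several PDZ domains that bind the tails of phosphate, organic ion and other transporters in the proximal tubule brush border. On its brighter probe set the values were 7.17 and 7.53 in 2D and 11.02 and 11.23 in 3D. On its other probe set they were 6.56 and 6.76 in 2D and 10.40 and 10.58 in 3D. On both, each 3D array lay above each 2D array by at least 3.49, while replicates of a group lay within 0.36 of each other. The rise was 13.7-fold on the first probe set (log2 difference 3.775, SE 0.154, 95% interval of the fold 10.6 to 17.8, limma adjusted p = 0.00145) and 14.2-fold on the second (3.83, SE 0.124, interval 11.5 to 17.5, limma adjusted p = 0.00145). Among all 42924 differences these stood at rank 10 and rank 8 from the top.

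In replicate 1 PDZK1 went from 3.41 to 7.34 on the first probe set and from 5.28 to 8.05 on the second. The differences of 3.93 and 2.77 have the sign seen on the other 4 arrays and stand at rank 111 and rank 801 from the top of that pair. The 2D value of 3.41 lay below that array's lower quartile of 3.52, which leaves the size of that difference uncertain.

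NHERF1, the scaffold that joins ezrin to membrane proteins, did not pass on either probe set. Its brighter probe set read 11.52 and 11.54 in 2D and 12.08 and 11.68 in 3D. The groups do not overlap there, but the difference of 0.35 (SE 0.150, 95% interval -0.016 to 0.716) did not pass (limma adjusted p = 0.232). Its second probe set read 8.81 and 8.90 in 2D and 8.90 and 8.53 in 3D, with overlapping groups and a difference of -0.14 (limma adjusted p = 0.645). On both probe sets 3D replicate 2 was above 3D replicate 3, by more than the 2D replicates differed. Replicate 1 gave -0.42 and 0.60, opposite in sign on each probe set to the other arrays. The 95% intervals reach at most 1.64-fold upward, against rises of 13.7- and 14.2-fold for PDZK1.

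The second gene to rise was GGT1, which encodes the ectoenzyme gamma-glutamyltransferase that starts the breakdown of glutathione outside the cell. Its brighter probe set read 8.62 and 8.99 in 2D and 11.04 and 10.62 in 3D. The second read 8.85 and 8.88 in 2D and 10.52 and 10.28 in 3D. Each 3D array was above each 2D array by at least 1.40 on both. The rise was 4.07-fold (2.025, SE 0.187, 95% interval of the fold 2.96 to 5.59, limma adjusted p = 0.00858) and 2.90-fold (1.535, SE 0.119, interval 2.37 to 3.54, limma adjusted p = 0.0061). Replicate 1 went from 7.45 to 8.60 and from 6.65 to 8.19, differences of 1.15 and 1.54. Of all probe sets in replicate 1, 14.3% were at least 2-fold higher and 19.7% at least 2-fold lower.

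The peptidase genes ANPEP and DPP4 did not pass on any probe set. ANPEP encodes aminopeptidase N, which trims amino acids from the ends of peptides. Its brighter probe set read 7.24 and 7.02 in 2D and 6.83 and 7.10 in 3D (difference -0.165, 95% interval -0.504 to 0.174, limma adjusted p = 0.555). The other read 5.85 and 6.05 in 2D and 6.11 and 5.84 in 3D (0.025, interval -0.308 to 0.358, limma adjusted p = 0.948). The groups overlap on both. Replicate 1 differed by -0.61 and 0.56, and its arrays read the first probe set at 2.04 in 2D and 1.43 in 3D, both below the arrays' lower quartiles.

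DPP4 encodes dipeptidyl peptidase 4, which removes dipeptides from peptide hormones and other substrates. Its brighter probe set read 5.58 and 5.28 in 2D and 5.66 and 5.86 in 3D, and its dimmer one 4.10 and 4.23 in 2D and 4.37 and 4.48 in 3D. The groups do not overlap on either, with differences of 0.33 (95% interval -0.015 to 0.675, limma adjusted p = 0.232) and 0.26 (interval -0.004 to 0.524, limma adjusted p = 0.219), neither of which passed. All 2D values and those of the dimmer probe set in 3D lay below the arrays' lower quartiles of 5.64 to 5.67, so that DPP4 was dim here. In replicate 1 the probe sets moved oppositely, by -2.18 and 0.81. The brighter one read 1.85 there in 3D, below that array's lower quartile of 3.38.

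**Figure D2:**
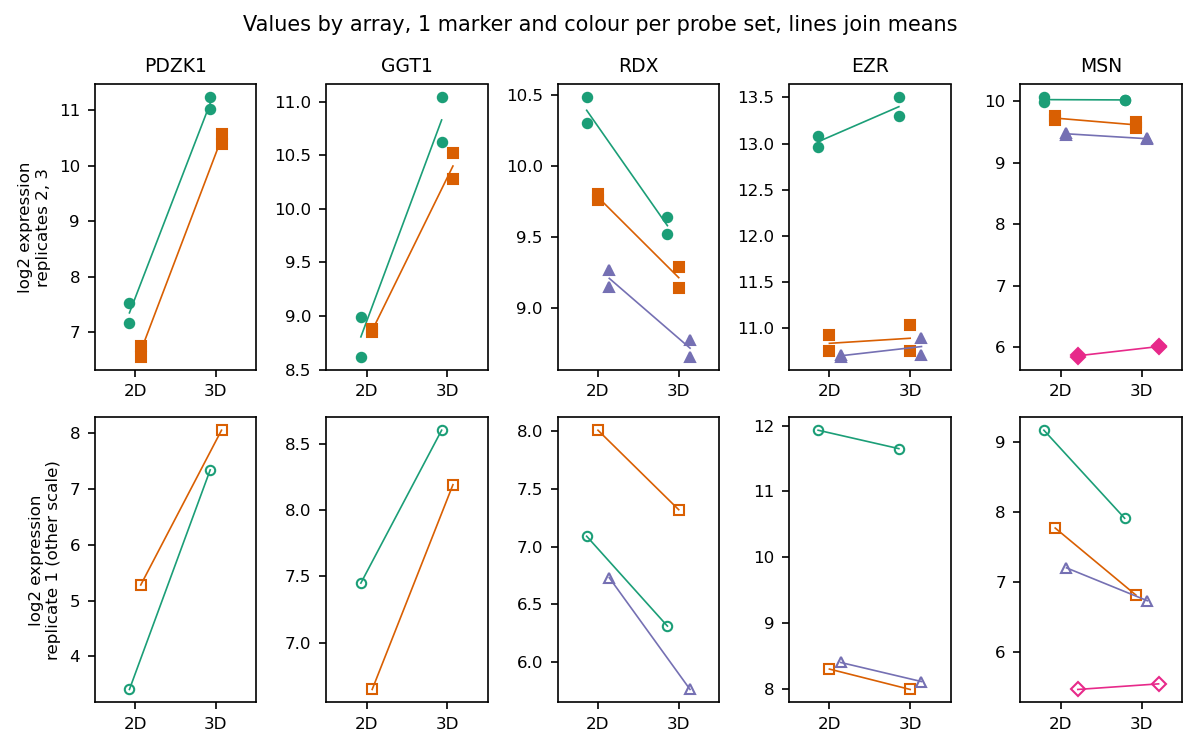
Each panel shows log2 expression of 1 gene in 2D and 3D, with a marker shape and colour for each probe set and lines joining group means; the vertical scale differs between panels. The upper row holds replicates 2 and 3 and the lower row the replicate 1 arrays on their own scale. The PDZK1, GGT1 and RDX groups stand apart in the upper row, whereas those of MSN differ by at most 0.15 in the mean.

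Among the ERM genes, RDX fell. It encodes radixin, the ERM member known from liver canaliculi and hair cell stereocilia. The brightest of its 3 probe sets read 10.48 and 10.30 in 2D and 9.64 and 9.52 in 3D, a fall of 1.75-fold (-0.81, SE 0.115, 95% interval -1.09 to -0.53, limma adjusted p = 0.0186). The next read 9.80 and 9.76 in 2D and 9.14 and 9.29 in 3D, a fall of 1.48-fold (-0.565, SE 0.106, limma adjusted p = 0.0368, but 0.0534 under trend and robust priors). The third read 9.15 and 9.27 in 2D and 8.66 and 8.78 in 3D, where the difference of -0.49 (SE 0.108, 95% interval -0.754 to -0.226) did not pass (limma adjusted p = 0.0544). When quantile normalized again, the third passed (-0.509, limma adjusted p = 0.0445). The groups do not overlap on any of the 3, and the replicate 1 differences were -0.78, -0.69 and -0.97. As the mean of the 3 probe sets RDX differed by -0.622 (limma adjusted p = 0.0206).

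EZR encodes ezrin, the ERM protein most typical of epithelial microvilli. The brightest of its 3 probe sets read 13.08 and 12.96 in 2D and 13.50 and 13.30 in 3D, without overlap, and its difference of 0.38 (SE 0.117, 95% interval 0.094 to 0.666) did not pass (limma adjusted p = 0.118). The other 2 gave differences of 0.055 (interval -0.274 to 0.384) and 0.10 (interval -0.167 to 0.367), with limma adjusted p of 0.869 and 0.664. Values there ran from 10.69 to 10.92 in 2D and from 10.71 to 11.03 in 3D, and the groups overlap or touch. The replicate 1 differences were below 0 on all 3, at -0.28, -0.31 and -0.29, opposite to those on replicates 2 and 3.

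MSN, which encodes moesin, the ERM protein abundant in leukocytes and endothelium, had the narrowest intervals. Its brightest probe set read 9.99 and 10.06 in 2D and 10.02 on both 3D arrays (difference -0.005, SE 0.0984, 95% interval -0.245 to 0.235, limma adjusted p = 0.988). The differences on the other 3 were -0.11, -0.08 and 0.15, with limma adjusted p of 0.428 to 0.701. Replicate 1 gave -1.26, -0.96, -0.47 and 0.08. The RDX interval of -1.09 to -0.53 on its brightest probe set lies wholly below the intervals of the 4 MSN probe sets (lowest bound -0.358) and of the 3 EZR probe sets (lowest bound -0.274). Its other intervals, -0.824 to -0.306 and -0.754 to -0.226, both overlap the MSN interval with that lowest bound. The last of them also overlaps the EZR interval with the lowest bound. The difference between ERM genes was not itself tested.

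**Figure D3:**
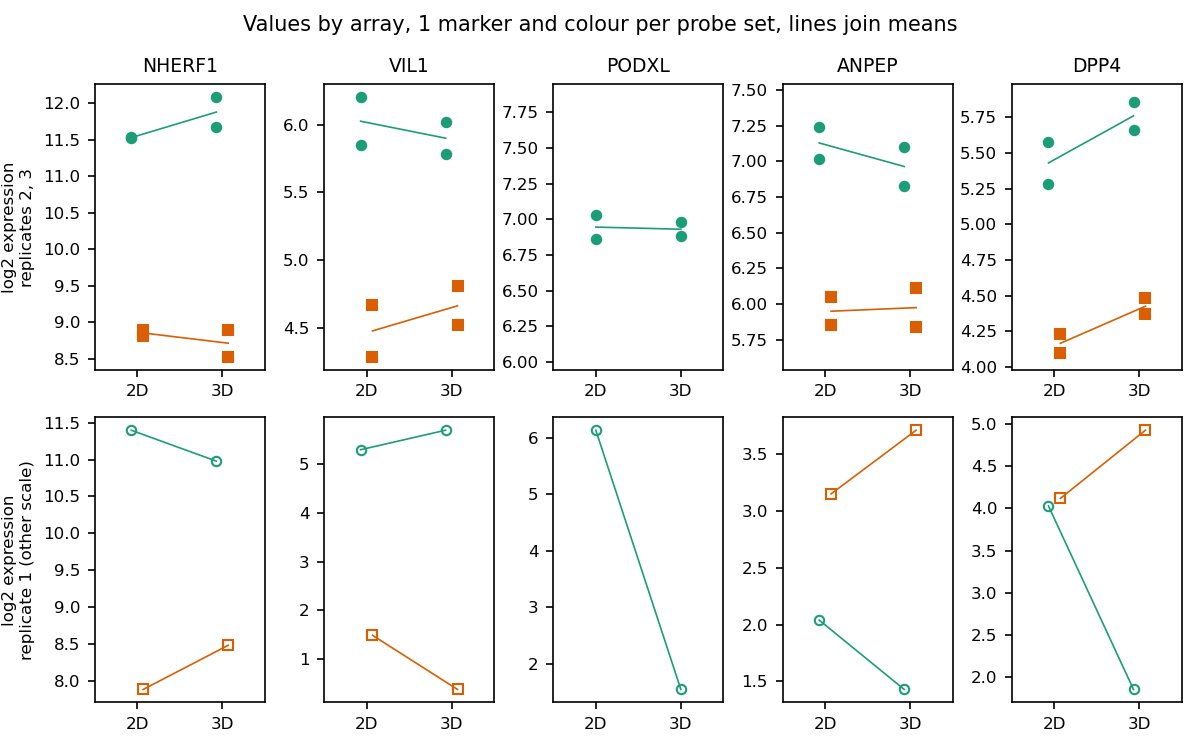
Each panel shows log2 expression of 1 gene in 2D and 3D, with a marker shape and colour for each probe set and lines joining group means; the vertical scale differs between panels. The upper row holds replicates 2 and 3 and the lower row the replicate 1 arrays on their own scale; PODXL is level in the upper row (6.945 and 6.93 in the mean) and drops from 6.14 to 1.54 in the lower row.

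VIL1 encodes villin, which bundles and, at high calcium, severs actin filaments in microvilli. Its brighter probe set read 6.20 and 5.85 in 2D and 6.02 and 5.78 in 3D (difference -0.125, 95% interval -0.504 to 0.254, limma adjusted p = 0.709). The dimmer one read 4.67 and 4.29 in 2D and 4.81 and 4.52 in 3D, below the lower quartiles on all 4 arrays (0.185, interval -0.224 to 0.594, limma adjusted p = 0.589). The groups overlap on both, the signs differ, and in replicate 1 each took the opposite sign (0.40 and -1.11). The dimmer one read 1.49 in 2D and 0.38 in 3D there, both below the arrays' lower quartiles.

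PODXL, which encodes podocalyxin, the heavily sialylated mucin of podocytes and of nascent lumens, had a single probe set. It read 6.86 and 7.03 in 2D and 6.88 and 6.98 in 3D, with the 3D values inside the 2D range (difference -0.015, SE 0.112, 95% interval -0.288 to 0.258, limma adjusted p = 0.962). In fold terms the interval runs from 1.22-fold lower to 1.20-fold higher. Replicate 1 read 6.14 in 2D and 1.54 in 3D, a difference of -4.60 that stood at rank 86 from the bottom of 42924, and the 3D value lay below that array's lower quartile of 3.38. No other probe set reads PODXL here, so that this fall has no second measurement. In the fits of all 6 arrays, which take in this pair, PODXL differed by -1.543, or by -1.214 after quantile normalization, and did not pass.

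Across the 23 probe sets, 14 had groups that do not overlap, against 51.8% of all probe sets. Of these 14, 6 passed. Replicates of a group differed by 0 to 0.42, with a median of 0.175. In replicate 1, 15 of 23 differences had the sign seen on the other arrays (54.4% of all probe sets), and so did all 6 probe sets that passed (73.9% of all that passed). These 6 belong to PDZK1, GGT1 and RDX only, and probe sets of the same gene are not separate agreements. A difference of at least 2-fold in replicate 1 was seen for 8 of 23, near the 34.0% of all probe sets.

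Leaving out any of the 4 arrays gave a group of 1 array, which limma then assumes to vary like the other group, with 1 residual degree of freedom. In these fits 0 of 42924 probe sets passed, and 4683 to 10892 had an unadjusted p below 0.05, so that the loss of calls says nothing about the members' stability. Their differences ran from 3.595 to 3.955 for PDZK1, from 1.815 to 2.235 for GGT1 and from -0.90 to -0.72 for RDX, with limma adjusted p of 0.0921 to 0.421. Fits of all 6 arrays, which mix the scales, called no member either, with PDZK1 at 3.762 to 3.827 on its brighter probe set.

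Partners of these genes were then read from 5 lists, each gene by its brightest probe set. Of all named genes 7.29% passed, 4.20% higher and 3.09% lower. Among microvillar actin core and tip link genes, 4 of 21 measured rose in 3D and none fell, which leaves 17 short of the threshold (median 0.07). The count of higher genes was 3 under trend and robust priors, and 2 with probe sets averaged by gene. USH1C, ANKS4B and CALML4 encode parts of the intermicrovillar adhesion complex, in which harmonin and its partners tie the protocadherins at microvillar tips to the actin core. EPS8 encodes an actin regulator at microvillar tips.

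CALML4, a calmodulin-like light chain, read 9.09 and 9.06 in 2D and 10.56 and 10.24 in 3D (1.325, SE 0.133, limma adjusted p = 0.0102), and its other 2 probe sets also passed (1.12 and 1.35). The scaffold gene ANKS4B, with 1 probe set, read 9.62 and 9.60 in 2D and 10.23 and 10.16 in 3D (0.585, SE 0.0986, limma adjusted p = 0.0288). In replicate 1 CALML4 differed by 0.77 and ANKS4B by 1.44. USH1C, the gene of harmonin, read 7.99 and 7.61 in 2D and 9.99 and 9.15 in 3D (1.77, SE 0.282, limma adjusted p = 0.0249; replicate 1 1.67).

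USH1C passed on 1 of its 3 probe sets, the others at 0.34 and -0.26, and not as their mean (0.617, limma adjusted p = 0.0632). EPS8 read 10.23 and 10.26 in 2D and 10.76 and 10.71 in 3D (0.49, limma adjusted p = 0.0432; replicate 1 0.17), with its other probe set at -0.28. It did not pass under trend and robust priors (limma adjusted p = 0.0644) or as the mean of its probe sets (0.679). The protocadherin genes CDHR2 and CDHR5 themselves differed by 0.07 and -0.085, with limma adjusted p of 0.779 and 0.708. MYO7B, the motor of the complex, differed by 0.675 (limma adjusted p = 0.137), and the bundling protein gene PLS1 by 0.365 (limma adjusted p = 0.104).

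**Figure D4:**
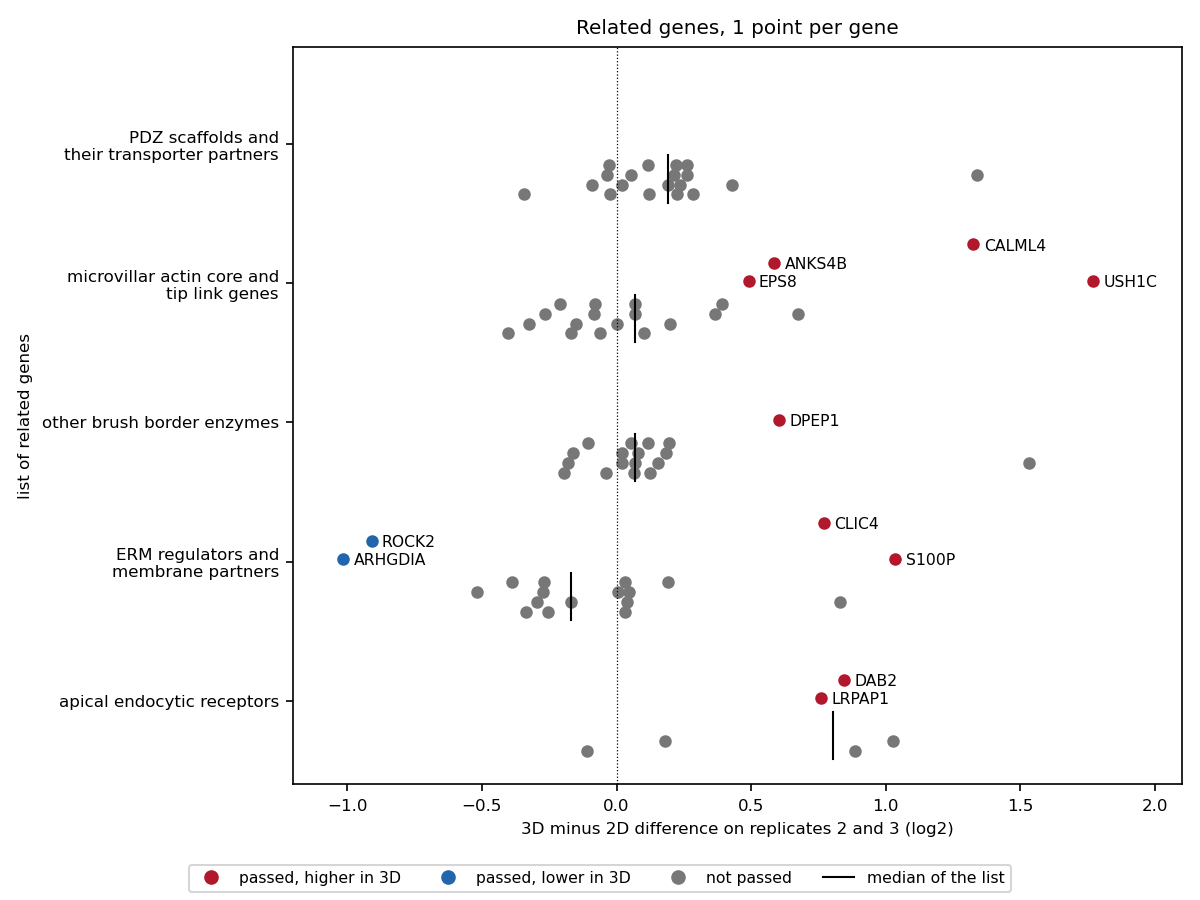
The horizontal axis gives the 3D minus 2D difference on replicates 2 and 3 (log2) and the vertical axis the 5 lists of related genes, with 1 point per gene and a bar at each list's median. Coloured points passed at a limma adjusted p under 0.05; the microvillar list holds 4 higher genes, the ERM list 2 higher and 2 lower, and the list of scaffold partners none.

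Of 18 other brush border enzymes measured, DPEP1 was higher, 0 were lower and 17 did not pass (median 0.068). DPEP1 encodes the membrane dipeptidase that splits cysteinylglycine, a product of the GGT1 reaction. It read 7.55 and 7.63 in 2D and 8.19 and 8.20 in 3D (0.605, SE 0.0991, limma adjusted p = 0.0268; replicate 1 1.12), with its second probe set at 0.51. Averaged over both probe sets it missed the threshold (limma adjusted p = 0.0636). The gene of tissue-nonspecific alkaline phosphatase, ALPL, read 6.25 and 6.36 in 2D and 8.39 and 7.28 in 3D (1.53, SE 0.335; replicate 1 1.84), and its second probe set differed by 0.24 (replicate 1 -1.49). The first did not pass (limma adjusted p = 0.053), though it did when quantile normalized again (0.0424), under trend and robust priors (0.049) and without dim probe sets (0.0446). The GGT1 relatives GGT5, GGT6 and GGT7 differed by 0.185, 0.125 and 0.155, with limma adjusted p of 0.414 to 0.65, against 2.025 for GGT1.

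None of the 19 measured PDZ scaffolds and transporter partners passed (median 0.19; 0.109 was the smallest limma adjusted p). The relatives of NHERF1, NHERF2 and NHERF4, differed by 0.285 and 0.225. ABCC2, an apical export pump for conjugates, had the highest difference of the list. It read 6.09 and 6.08 in 2D and 8.10 and 6.75 in 3D (1.34, SE 0.400, limma adjusted p = 0.109), with 3D replicates far apart. Its other probe sets differed by 0.99 and 0.035, and in replicate 1 the 3 differed by -1.80, -3.98 and 0.82, with the sign turned on the first and the second. The carnitine transporter gene SLC22A5 differed by -0.345 (limma adjusted p = 0.141). The sodium-phosphate cotransporter genes SLC34A1 and SLC34A3, whose proteins PDZK1 and NHERF1 are known to bind, differed by 0.02 and -0.03.

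ERM regulators and membrane partners went both ways, with 2 of 19 higher, 2 lower and 15 not passing (median -0.17). S100P, whose calcium-bound protein can bind ezrin, read 11.00 and 11.18 in 2D and 12.19 and 12.06 in 3D (1.035, SE 0.116, limma adjusted p = 0.0121; replicate 1 1.73). CLIC4, an ezrin-linked intracellular chloride channel family gene, rose on all 3 probe sets (0.77, 0.685 and 0.79; limma adjusted p of 0.0256 to 0.0319), with 0.26 in replicate 1 on the brightest.

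Lower in 3D were ARHGDIA, whose protein ERM proteins can bind, and ROCK2, a serine/threonine kinase. ARHGDIA read 10.33 and 10.83 in 2D and 9.59 and 9.54 in 3D (-1.015, SE 0.174, limma adjusted p = 0.0298; replicate 1 -0.56). ROCK2 read 5.94 and 5.68 in 2D and 4.85 and 4.95 in 3D (-0.91, SE 0.125, limma adjusted p = 0.0175), its 3D values below the arrays' lower quartiles, and differed by 1.84 in replicate 1. In that pair its 2D value of 2.38 lay below that array's lower quartile of 3.52. On all 6 arrays ROCK2 differed by 0.007, or by -0.176 after quantile normalization. The ERM kinase genes STK10 (-0.295) and SLK (-0.275) and the ERM relative NF2 (-0.255) did not pass, with limma adjusted p of 0.145 to 0.259. MUC1 did not pass either, and its difference was above 0 (0.83, limma adjusted p = 0.0642). Its second probe set differed by 0.66, and replicate 1 gave -1.04 and -0.83.

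Of 6 apical endocytic genes, 2 were higher, 0 were lower and 4 did not pass (median 0.802). DAB2, the adaptor of the megalin receptor, read 7.71 and 7.79 in 2D and 8.57 and 8.62 in 3D (0.845, SE 0.10, limma adjusted p = 0.0133; replicate 1 0.03), and passed on 2 of 3 probe sets. LRPAP1, the chaperone of that receptor, read 11.04 and 10.99 in 2D and 11.98 and 11.57 in 3D (0.76, SE 0.153, limma adjusted p = 0.0435; replicate 1 0.26), but not as the mean of its probe sets (0.0777). LRP2, the gene of megalin itself, differed by -0.11 (limma adjusted p = 0.647), and its partner CUBN by 0.885 (limma adjusted p = 0.0781). For CUBN replicate 1 went the other way, at -1.56 and, on its second probe set, -0.58 (0.44 on replicates 2 and 3). CUBN differed by 0.07 on all 6 arrays, and by 0.545 without 3D replicate 2. FCGRT differed by 1.025 (limma adjusted p = 0.0668), and its other probe sets by 0.685 and 0.68. In replicate 1 these FCGRT probe sets differed by 0.87, 0.75 and 1.08. AMN differed by 0.18 (limma adjusted p = 0.357).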

How the data were processed

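RNA from 6 cultures was labelled with biotin (4 µg each) and read on 1-colour Affymetrix canine arrays, per the labels' protocols. The deposited values are log2 expression, 1 for each probe set on each array. RMA and limma are named in the submitters' processing notes; their versions, the probe set definition and the making of the replicate 1 columns are not given in these sources. Of 43035 probe sets, 111 controls were left out; the platform annotation gave 29254 a single symbol, 439 several and 13231 none. Differences were fitted with lmFit and eBayes of limma 3.58.1 (R 4.3.3) on the 4 arrays of replicates 2 and 3 without a filter on level, two-sided, with Benjamini-Hochberg adjustment over 42924 probe sets and a threshold of 0.05; the script was tested on simulated data. The eBayes step draws the variance of each probe set toward a value pooled over all probe sets. SEs, intervals and p-values therefore do not rest on a probe set's own arrays alone. They describe these samples only, and 2 arrays per group limit the precision. Same-numbered arrays did not deviate together (r = 0.001 across probe sets), so numbers were not taken as pairs.

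Of a gene's probe sets, the one highest on average over the 6 arrays stands for it and is called brightest here. Named were all members with every probe set; of each list, up to 4 passing genes, else the 2 with the smallest adjusted p. Other list genes named (CDHR2, CDHR5, MYO7B, PLS1, ALPL, GGT5, GGT6, GGT7, NHERF2, NHERF4, SLC34A1, SLC34A3, STK10, SLK, NF2, MUC1, LRP2, CUBN, FCGRT, AMN) were chosen after their values were seen. The members and lists were chosen with earlier results of these data known. Alternatives were all 6 arrays, a replicate block, other scalings, priors, a dim filter, probe set means and leaving out each array. No sequences are printed. Joins and plots were made in Python 3.11.15 (pandas 2.3.3, numpy 2.4.6; plots in matplotlib 3.10.9).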

Additional observations from a re-analysis of the deposited data

How the results depend on the processing

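On replicates 2 and 3, median centring changed no call and no sign among the 23 probe sets. Choosing each gene's probe set on these 4 arrays alone was an alternative added after seeing the data. It picked the same probe set for all 10 genes, so it could not change a call or a sign. Quantile normalization again, trend and robust priors, and the dim filter each gave 2 enzyme list genes higher in place of 1, and the filter left 1 ERM list gene lower in place of 2, since it took out ROCK2. The third RDX probe set passed when quantile normalized again (-0.509). With probe sets averaged by gene, 1035 features were higher and 765 lower, against 1565 and 1272 probe sets, from fewer features. The microvillar list then had 2 genes higher, the enzyme list 0 and the endocytic list 1. VIL1 reversed to 0.03, and the list medians were 0.113 (PDZ partners), -0.058 (microvillar), -0.01 (enzymes) and -0.057 (ERM partners).

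With the replicate block on these 4 arrays, 0 probe sets passed (8325 at an unadjusted p under 0.05 in limma), so that the counts of members and of every list were 0. PDZK1 stayed at 3.775, GGT1 at 2.025 and RDX at -0.81, each with a limma adjusted p = 0.153. Numbers did not pair these arrays, and the block leaves 1 residual degree of freedom in place of 2. With no probe set of the array passing, the lost calls say nothing about these genes in particular.

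With all 6 arrays, calls of members and lists were likewise 0. Without the block 0 probe sets passed (105 at an unadjusted p under 0.05), with it 0 (2723). Either way PODXL moved furthest among the 10 genes, from -0.015 to -1.543, and MSN went from -0.005 to -0.423. PDZK1 was 3.827, GGT1 1.733, RDX -0.80, VIL1 0.05, DPP4 -0.507, ANPEP -0.313, EZR 0.16 and NHERF1 0.093. Other probe sets reversed to 0.107 (NHERF1), -0.247 (VIL1), -0.067 and -0.03 (EZR). List medians were -0.147 (PDZ partners), -0.06 (microvillar), -0.02 (enzymes), -0.093 (ERM partners) and 0.518 (endocytic). With all 6 arrays quantile normalized, 2 probe sets were higher and 0 lower without the block (1775 at an unadjusted p under 0.05), and 0 with it (3517), the latter added after seeing the data. PODXL was then -1.214, MSN -0.397, PDZK1 3.762, GGT1 1.763, RDX -0.759, VIL1 0.083, DPP4 -0.226, and other probe sets 0.116 (NHERF1) and -0.024 (EZR). The medians were -0.059 (PDZ partners), -0.042 (microvillar), -0.071 (ERM partners) and 0.532 (endocytic). Before quantile normalization, a probe set's difference over all 6 arrays is the mean of its same-numbered differences, that of replicate 1 among them. The cause of the replicate 1 differences was not tested.

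Without 1 array at a time, 1 group holds a lone array assumed to vary like the other group. All counts of calls were then 0 to 0, over the whole array as well, which is no measure of the stability of members or lists. The list medians ran from 0.075 to 0.155 (PDZ partners), 0.01 to 0.08 (microvillar), -0.007 to 0.128 (enzymes), -0.225 to -0.025 (ERM partners) and 0.55 to 0.892 (endocytic). Signs of members turned only where the test was not passed. Ranges were -0.30 to 0.05 (VIL1), -0.04 to 0.03 (MSN), -0.10 to 0.07 (PODXL), and on other probe sets -0.085 to 0.195 (EZR), -0.11 to 0.16 (ANPEP), -0.005 to 0.375 (VIL1) and -0.325 to 0.045 (NHERF1). PDZK1 ran from 3.595 to 3.955, GGT1 from 1.815 to 2.235 and RDX from -0.90 to -0.72.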
